A study of Mus musculus with 6 samples.

Results

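The genes described here encode 10 subunits of the 2 Polycomb repressive complexes: Ezh1, Ezh2, Eed and Suz12 of PRC2, and Bmi1, Ring1, Rnf2, Cbx7, Cbx8 and Phc1 of PRC1. They were chosen by name, as subunits known in stem cell self-renewal, and every probe set that the platform annotation gives to exactly 1 of these symbols was taken. This gave 27 of the 45101 probe sets on the array, and covered all 10 genes, of 18194 genes with such a probe set. The samples were haematopoietic stem cells of C57BL/6 mice aged 8 to 12 weeks, held under specific pathogen-free conditions. Irgm1-/- mice, called Lrg-47-/- in the labels after the gene's older name, gave 3 arrays, and wild-type (WT) mice gave 3. Irgm1 is an interferon-induced GTPase, and the labels do not say which part of the gene was deleted or how many mice each array represents. Cells of both groups were sorted from whole bone marrow by efflux of a Hoechst dye (the side population) and by Sca-1, c-kit and lineage staining, and their RNA went through 2 rounds of linear amplification. Nothing in the labels says that the arrays of a group came from separate mice, so p-values measure only the spread between these arrays.

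PRC2 places methyl groups on a lysine of histone H3, with Ezh2 or its relative Ezh1 as the catalytic subunit and Eed and Suz12 as subunits that the enzyme needs. PRC1 attaches ubiquitin to histone H2A through the ligases Ring1 and Rnf2. Its Cbx subunits bind the mark left by PRC2, Bmi1 activates the ligase, and Phc1 helps the complex to cluster on chromatin. In blood formation Bmi1 is known for sustaining stem cell self-renewal, in part by silencing Cdkn2a, and Ezh2 is known for its high levels in dividing cells, whereas Ezh1 is common in resting ones.

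The promoters of the 2 catalytic genes of PRC2 are shown because the results below turn on this pair. Each is the 250 bases upstream of the gene's start in RefSeq on build GRCm38.p6, written 5′ to 3′ on the gene's own strand, with CG dinucleotides in capitals. That of Ezh2 lies at chr6:47595031-47595280 and that of Ezh1 at chr11:101226464-101226713, both on the minus strand.
Ezh2: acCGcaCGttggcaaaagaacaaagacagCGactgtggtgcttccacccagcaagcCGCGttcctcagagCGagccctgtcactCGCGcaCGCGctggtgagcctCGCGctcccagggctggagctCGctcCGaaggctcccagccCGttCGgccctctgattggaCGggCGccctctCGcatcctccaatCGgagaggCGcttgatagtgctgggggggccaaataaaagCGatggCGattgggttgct
Ezh1: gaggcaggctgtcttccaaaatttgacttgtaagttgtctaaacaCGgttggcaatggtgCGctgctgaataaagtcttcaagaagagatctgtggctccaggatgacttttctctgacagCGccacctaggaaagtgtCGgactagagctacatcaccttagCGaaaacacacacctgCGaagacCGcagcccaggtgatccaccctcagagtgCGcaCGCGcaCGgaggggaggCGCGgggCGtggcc
The Ezh2 stretch holds 23 CG dinucleotides and the Ezh1 stretch 14, against a median of 6 over all 32851 promoters in the table. Those of the 10 members, all of which matched by symbol, held 8 to 37. On either strand, 4 non-overlapping forms of the E2F site were searched, TTTCCCGC, TTTGCCGC, TTTCGCGC and TTTGGCGC. One form, TTTCCCGC, was found in 1 of the 10 member promoters, that of Suz12, where it begins 219 bases before the start. Of all promoters in the table, 1.86% held a form in the same window.

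Expression values are on the log2 scale of GCRMA, so a difference of 1 is a 2-fold difference, and differences are given as Irgm1-/- minus WT. The array medians lay between 3.67 and 3.73. Control probe sets for bacterial transcripts, which no mouse RNA should bind, reached at most 2.90 to 3.02 on an array. Irgm1 itself read 7.68, 8.58 and 7.84 on the Irgm1-/- arrays and 8.39, 8.57 and 8.36 on the WT arrays, with a difference of -0.41 (limma adjusted p = 0.475). Irgm1-/- replicate 2 was the highest of the 6 arrays. Whether the probe set lies within the deleted part is not known here, so its reading does not check the genotype, and every direction below rests on the groups as labelled. Of 15 stem cell markers, 13 had a probe set, and each of these lay above the bacterial controls on at least 1 array. Their mean was 10.14, 10.44 and 10.33 on the Irgm1-/- arrays and 10.57, 10.66 and 10.59 on the WT arrays, so that the groups did not overlap. Limma called 0 of the 13, though 12 had negative differences and 9 (69.2%) had an unadjusted p under 0.05, against 18.5% of all genes tested. Those 9 include Slamf1, the 1 marker with a positive difference, at 1.43 (SE 0.39, limma adjusted p = 0.145), whose groups did not overlap.

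None of the Polycomb members passed the test between Irgm1-/- and WT stem cells. Probe sets entered the test if they exceeded the median on at least 3 of the 6 arrays in any group, which kept 20 of the 27 and all genes but Cbx8. Limma called 0 of these 20 at adjusted p under 0.05, where 1.39% of all 22580 tested probe sets were called. At unadjusted p under 0.05 there were 4 of 20 (20%), 1 higher and 3 lower, against 16.4% of all tested. Counted by gene, with the brightest tested probe set of each, these were 4 of 9 members (44.4%), Ezh2 higher and Ezh1, Bmi1 and Cbx7 lower, against 18.5% of 10374 genes tested. The groups did not overlap for 4 of 20 probe sets (20%), 2 higher and 2 lower, against 22.6% of all tested (11.5% higher and 11% lower). By probe set both shares lie near the background, while by gene the share at unadjusted p under 0.05 lies above it. The share by gene rests on the brightest probe sets. The other tested ones of Ezh1 (-0.0049 and -0.08), Bmi1 (-0.11) and Cbx7 (-0.06 and 0.37) gave smaller differences. The member differences ran from -0.69 to 1.08 with a median of -0.09, beside 0.01 over all tested probe sets.

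The design bounds most of these differences. For 15 of the 20 probe sets (75%), the 95% interval of the difference lay within 2-fold in either direction, against 77.4% of all tested. The other 5 were the probe set of Ezh2, 1 each of Ezh1 and Suz12, and 2 of Cbx7. These bounds show how large a difference the arrays could have missed, not that the levels were equal.

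**Figure D1:**
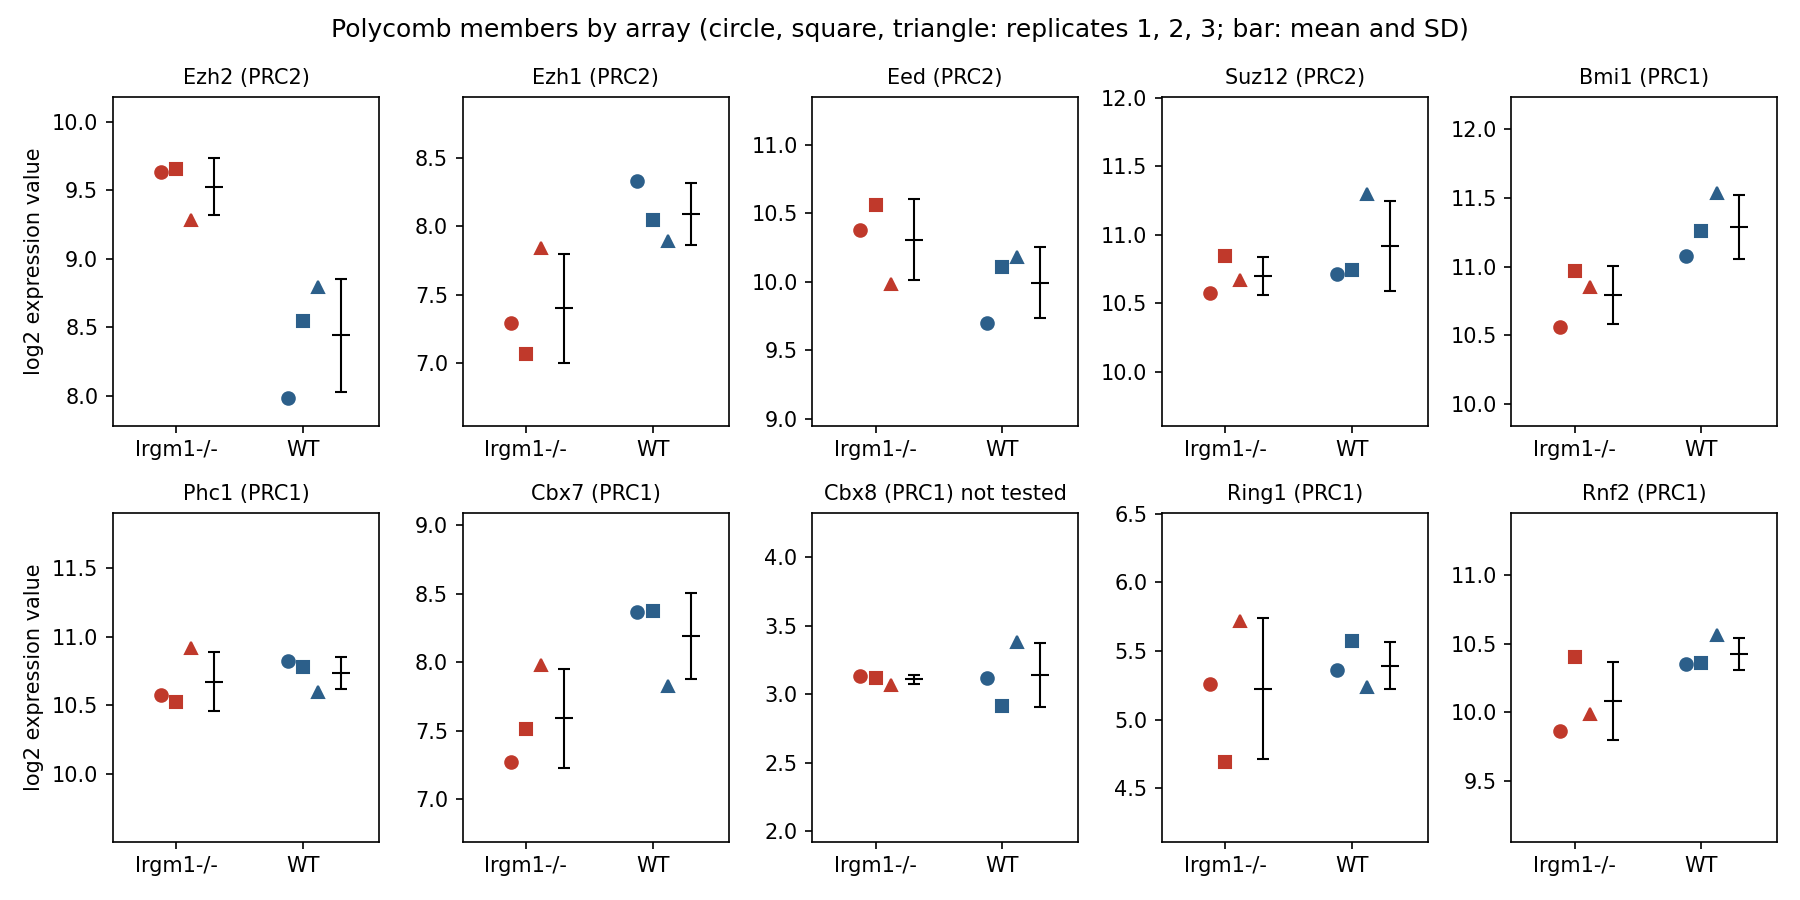
Log2 expression values of the 10 members on each array, with the brightest tested probe set of each gene (Cbx8, not tested, by its brighter one). Circles, squares and triangles are replicates 1, 2 and 3, Irgm1-/- in red and WT in blue, with the mean and SD beside them, and each panel spans the same range of log2 units around its own mean. The groups of Ezh2, Ezh1 and Bmi1 do not overlap, and those of the other 7 do.

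The largest difference among the members was that of Ezh2, the PRC2 methyltransferase typical of dividing cells. Its single probe set, 1416544_at, read 9.63, 9.66 and 9.29 on the Irgm1-/- arrays and 7.98, 8.55 and 8.79 on the WT arrays. Every Irgm1-/- array lay above every WT array, the closest being Irgm1-/- replicate 3 and WT replicate 3. The means were 9.52 ± 0.21 and 8.44 ± 0.41 (SD, n = 3 each), a difference of 1.08 (SE 0.24, limma adjusted p = 0.0894). That is 2.12-fold with a 95% interval of 1.45 to 3.11, and the probe set ranked 540 by p among the 22580 tested. Ezh2 passed at adjusted p under 0.05 when dim probe sets were filtered at the 70th percentile (adjusted p = 0.0368), with array weights (1.18, adjusted p = 0.0277) and with the actin gap described below as a covariate (1.16, adjusted p = 0.0333). Its adjusted p was 0.0277 to 0.254 over the 17 alternatives, the highest without Irgm1-/- replicate 1.

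Ezh1, the alternative methyltransferase common in resting cells, had 4 probe sets, and the 3 tested ones differed among themselves. The brightest, 1449023_a_at, read 7.30, 7.07 and 7.84 on the Irgm1-/- arrays and 8.33, 8.05 and 7.89 on the WT arrays. The groups did not overlap, though Irgm1-/- replicate 3 came close to WT replicate 3. Its difference was -0.69 (SE 0.24, 95% interval -1.26 to -0.12, unadjusted p = 0.0239, limma adjusted p = 0.232). The probe set 1418290_a_at read 6.42, 6.42 and 6.00 in Irgm1-/- and 6.44, 6.56 and 5.86 in WT, a difference of -0.0049 (SE 0.24, adjusted p = 0.994). In both groups replicate 3 was its lowest array. The third, 1429629_at, differed by -0.08 (adjusted p = 0.821). The lower Ezh1 reading in Irgm1-/- thus came from 1 of 3 tested probe sets, and the suffix _a marks sets that read several transcripts of the same gene. The 1 untested probe set lay between 2.64 and 2.73 on the 6 arrays, below the bacterial controls.

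Both methyltransferases were then set against each other within each array, which asks whether they changed unequally. With 1449023_a_at for Ezh1, Ezh2 minus Ezh1 was 2.33, 2.59 and 1.45 on the Irgm1-/- arrays and -0.35, 0.50 and 0.90 on the WT arrays. The groups did not overlap, and the means differed by 1.77 (exact permutation test over the 6 arrays, 2-sided, p = 0.1, the smallest that 3 against 3 arrays can give). With 1418290_a_at the values were 3.21, 3.23 and 3.29 in Irgm1-/- against 1.55, 1.98 and 2.93 in WT, a difference of 1.09. With 1429629_at they were 4.86, 4.81 and 4.76 in Irgm1-/- against 3.23, 3.80 and 3.90 in WT, a difference of 1.17. The exact p was 0.1 for these as well. Since those 2 Ezh1 probe sets differed by only -0.0049 and -0.08, both contrasts mostly follow Ezh2 itself. All 3 contrasts share the Ezh2 probe set, and 2 such within-array contrasts were planned. With 3 against 3 arrays none could pass at 0.05, before or after adjustment.

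**Figure D2:**
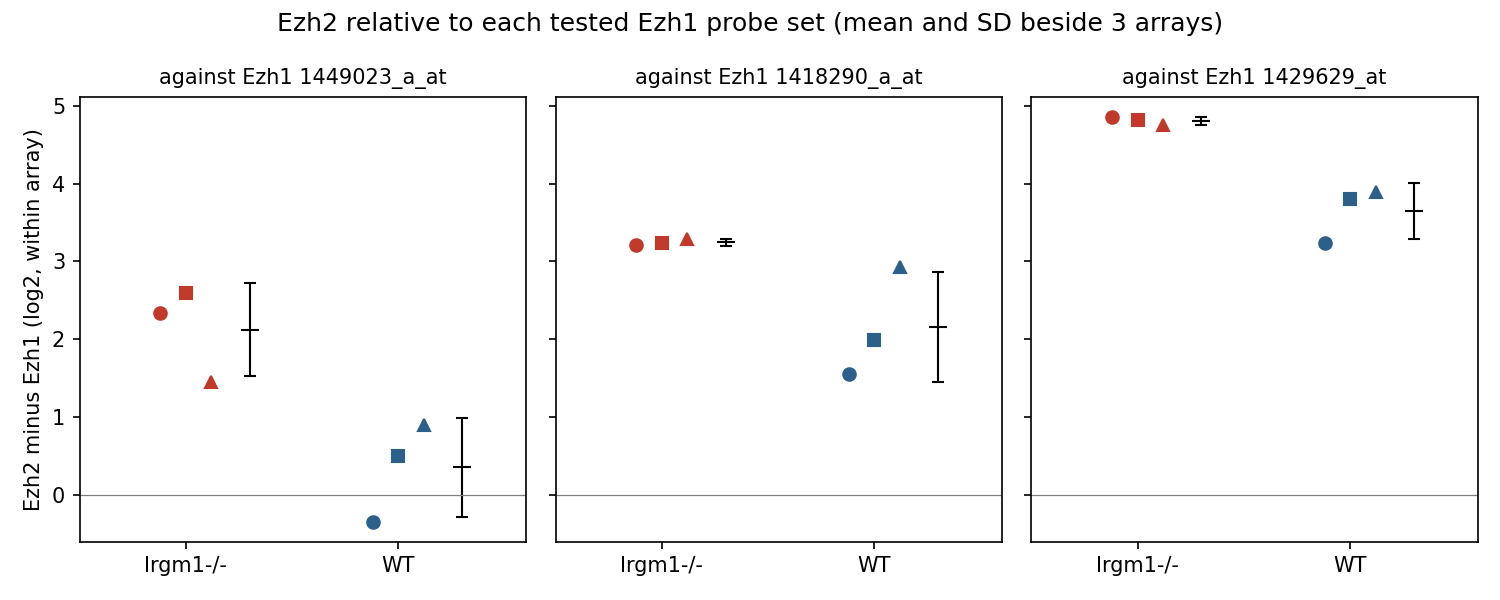
Ezh2 minus Ezh1 on the log2 scale within each array, with 1 panel for each tested Ezh1 probe set. Points are the 3 Irgm1-/- arrays (red) and the 3 WT arrays (blue), marked as circle, square and triangle for replicates 1, 2 and 3, and bars are mean and SD. In each panel the Irgm1-/- arrays sit above the WT arrays, with differences of 1.77, 1.09 and 1.17.

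Eed, the PRC2 subunit that recognises the methylated lysine, was read by 2 probe sets with positive differences. The brighter, 1448653_at, read 10.38, 10.56 and 9.98 on the Irgm1-/- arrays and 9.70, 10.11 and 10.18 on the WT arrays. Irgm1-/- replicate 3 lay among the WT arrays, and the difference of 0.31 (SE 0.20, adjusted p = 0.497) did not pass. The dimmer, 1453830_at, read 4.07, 4.06 and 3.78 in Irgm1-/- and 3.71, 3.64 and 3.77 in WT. These groups were separated only by the gap between the replicates numbered 3, and the difference was 0.26 (SE 0.12, adjusted p = 0.318).

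Suz12, the scaffold of PRC2, had 6 probe sets, and its 5 tested ones split in direction. The brightest, 1420021_s_at, read 10.58, 10.85 and 10.67 on the Irgm1-/- arrays and 10.71, 10.74 and 11.30 on the WT arrays, a difference of -0.22 (SE 0.19, adjusted p = 0.604). The next, 1427253_s_at, read 7.80, 8.18 and 7.94 in Irgm1-/- and 8.05, 8.43 and 8.77 in WT, a difference of -0.44 (SE 0.23, adjusted p = 0.380). For 1452364_at the difference was -0.32 (adjusted p = 0.593), and in all 3 of these probe sets WT replicate 3 was the highest array. The probe set 1420022_s_at read 6.43, 6.51 and 6.17 in Irgm1-/- and 5.41, 6.43 and 6.22 in WT, a difference of 0.35 (SE 0.28, adjusted p = 0.581). In 1449661_at the difference was also 0.36 (adjusted p = 0.524), with 4.66, 4.33 and 4.41 in Irgm1-/- against 3.54, 4.48 and 4.32 in WT. In both of these WT replicate 1 was the lowest array, and without it the differences were 0.05 and 0.07. The groups overlapped in each of the 5. The sixth lay below the bacterial controls on every array. The suffix _s marks probe sets that can read transcripts of more than 1 gene.

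Among the PRC1 members the lowest unadjusted p belonged to Bmi1, the subunit that activates the ligase and is known for sustaining stem cells. Its probe set 1417493_at read 10.56, 10.96 and 10.85 on the Irgm1-/- arrays and 11.08, 11.26 and 11.53 on the WT arrays. Every Irgm1-/- array lay below every WT array, with a difference of -0.50 (SE 0.17, 95% interval -0.89 to -0.10, unadjusted p = 0.0205, limma adjusted p = 0.219). The second Bmi1 probe set, 1448733_at, read 9.53, 9.87 and 9.72 in Irgm1-/- and 9.60, 9.80 and 10.03 in WT. Here the groups overlapped and the difference was -0.11 (SE 0.17, adjusted p = 0.809). Replicate 1 was the lowest array of its group in both probe sets. The interval of the second, -0.50 to 0.29, leaves out a 2-fold loss of Bmi1, as does that of the first.

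Cbx7, the chromodomain subunit that is known in mice to favour self-renewal of blood stem cells, had 3 tested probe sets. The brightest, 1433557_at, read 7.27, 7.51 and 7.98 on the Irgm1-/- arrays and 8.37, 8.38 and 7.83 on the WT arrays. Irgm1-/- replicate 3 lay above WT replicate 3, so the groups overlapped, and the difference was -0.60 (SE 0.25, unadjusted p = 0.0458, limma adjusted p = 0.296). In 1420039_s_at the difference had the other sign, 0.37 (SE 0.31, adjusted p = 0.609), with Irgm1-/- replicate 3 at 5.24 and the other 5 arrays between 3.82 and 4.28. The third, 1449713_at, differed by -0.06 (adjusted p = 0.871).

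Cbx8, a chromodomain subunit linked to differentiation, lay near the bacterial controls and was not tested. Its higher probe set, 1419198_at, read 3.14, 3.12 and 3.07 on the Irgm1-/- arrays and 3.12, 2.92 and 3.38 on the WT arrays, and its other lay between 2.47 and 2.53. Cbx7 minus Cbx8 within each array was 4.14, 4.40 and 4.92 in Irgm1-/- and 5.25, 5.46 and 4.45 in WT. The groups overlapped, with a difference of -0.57 (exact permutation test, 2-sided, p = 0.2, where 0.1 is the smallest possible, n = 3 arrays per group). With Cbx8 near background, this contrast mostly follows Cbx7.

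Neither the ligase genes nor Phc1 had an unadjusted p under 0.05. Rnf2, the main ligase subunit of PRC1, read 9.86, 10.40 and 9.99 on the Irgm1-/- arrays and 10.35, 10.36 and 10.56 on the WT arrays with 1424873_at. Irgm1-/- replicate 2 lay among the WT arrays, and the difference was -0.34 (SE 0.17, adjusted p = 0.382). Its second tested probe set gave -0.33 (SE 0.22, adjusted p = 0.511), and 3 more lay at 1.51 to 3.39 and were not tested. Ring1, the second ligase, read 5.26, 4.69 and 5.72 in Irgm1-/- and 5.36, 5.58 and 5.24 in WT, a difference of -0.17 (SE 0.26, adjusted p = 0.802). The 3 Irgm1-/- arrays held both its highest and its lowest value. Phc1, the polyhomeotic subunit, read 10.58, 10.52 and 10.92 in Irgm1-/- and 10.82, 10.78 and 10.60 in WT. Its difference of -0.06 (SE 0.15, 95% interval -0.42 to 0.29, adjusted p = 0.882) leaves out a 2-fold difference in either direction.

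**Figure D3:**
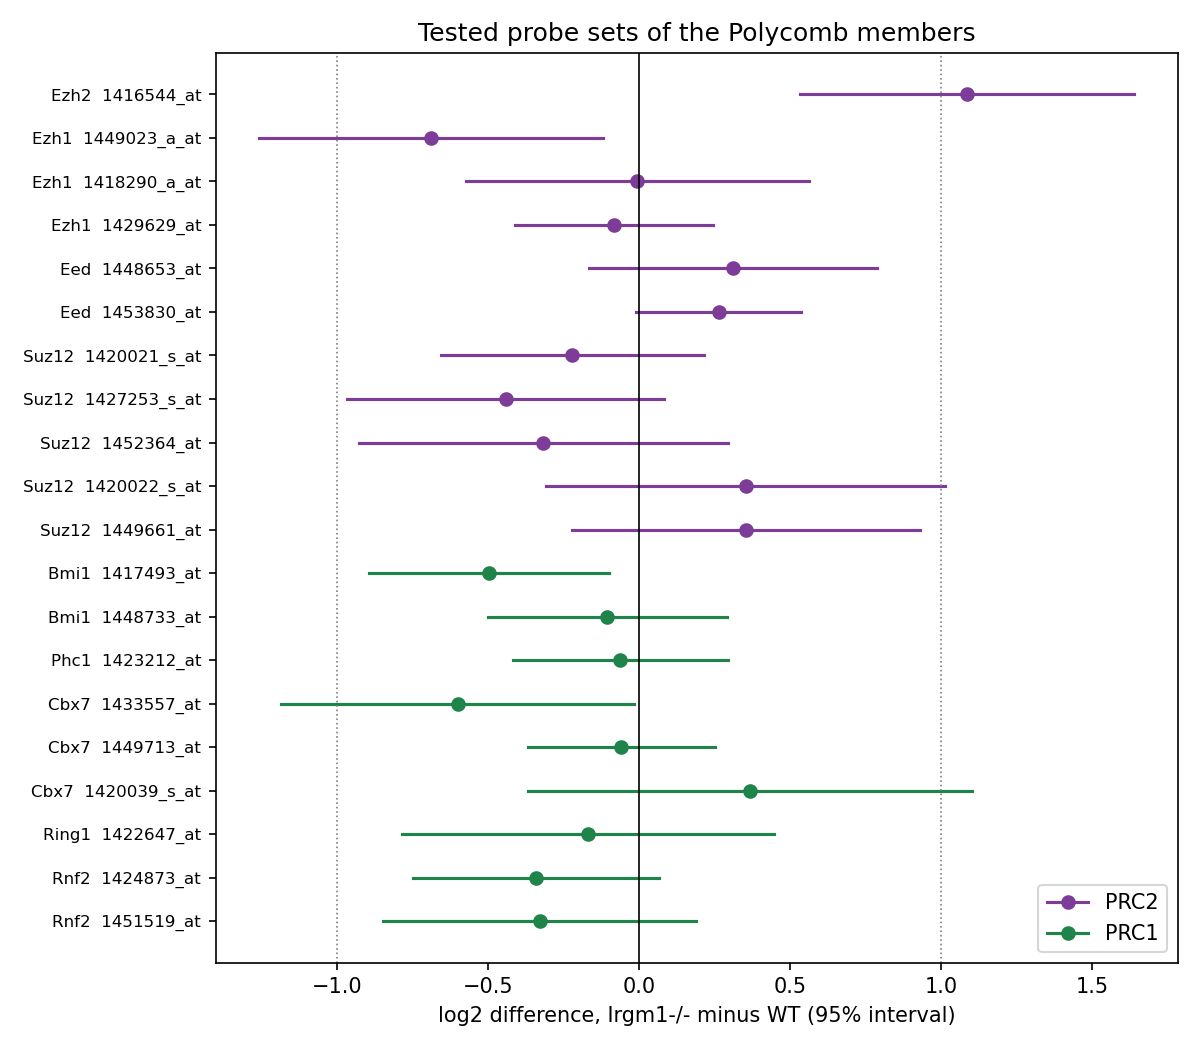
Log2 difference, Irgm1-/- minus WT, of the 20 tested probe sets (points) with 95% intervals from the limma fit (lines), PRC2 genes in purple and PRC1 genes in green. Dotted lines mark 2-fold in either direction. Ezh2 lies at 1.08, every PRC1 probe set but 1 of Cbx7 lies below 0, and Ezh1, Suz12 and Cbx7 have probe sets that differ from each other.

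The partner genes of the complexes, each counted by its brightest tested probe set, likewise had none past the threshold. Limma called 0 of 7 tested PRC2 accessory and histone-binding genes, 0 of 13 other PRC1 genes, 0 of 7 opposing erasers and 0 of 12 Trithorax genes, beside 2.03% of 10374 genes tested. At unadjusted p under 0.05 the counts were 0, 1, 1 and 1, against 4 of the 9 tested members and 18.5% of all genes tested. Their median differences were -0.22, -0.0083, 0.02 and -0.04, beside 0.0032 over all genes tested and -0.22 over the 9 tested members. Within PRC2, the targeting subunits gave -0.26 for Aebp2 (adjusted p = 0.323) and -0.23 for Jarid2 (adjusted p = 0.420), with SEs of 0.12 and 0.13. Phf19, which binds methylated histone H3, was at -0.38 (SE 0.23, adjusted p = 0.456). Jarid2 read 10.41, 10.53 and 10.54 in Irgm1-/- and 10.85, 10.67 and 10.65 in WT, without overlap. Among PRC1 genes outside the members the smallest p belonged to Cbx6, another chromodomain subunit, with 11.15, 10.91 and 11.39 on the Irgm1-/- arrays and 11.64, 11.74 and 11.67 on the WT arrays. These groups did not overlap, and the difference was -0.53 (SE 0.15, adjusted p = 0.144). It passed with array weights (-0.64, adjusted p = 0.0416), within a list in which no other alternative called a gene. Phc3, a relative of Phc1, followed with -0.50 (SE 0.22, adjusted p = 0.312), then Bcorl1, a corepressor, with -0.40 (SE 0.22, adjusted p = 0.411).

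Enzymes that undo or oppose Polycomb marks, and their partner subunits, gave values in both directions. Asxl1, a partner of the H2A deubiquitinase Bap1, was at -0.46 (SE 0.18, adjusted p = 0.284), while its relative Asxl2 was at 0.29 (SE 0.17, adjusted p = 0.448). Kdm6b, a demethylase of the PRC2 mark, was at 0.50 (SE 0.31, adjusted p = 0.466). Of the Trithorax list, whose complexes methylate another lysine of histone H3, Psip1 was at 0.36 (SE 0.15, adjusted p = 0.280), Rbbp5 at -0.44 (SE 0.20, adjusted p = 0.329) and Ash2l at 0.19 (SE 0.15, adjusted p = 0.559).

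Textbook targets of Polycomb were mostly at background. Of 20 such genes, 5 were tested, and 11 lay at or below the bacterial controls on all 6 arrays. Cdkn2a, the cell cycle inhibitor locus silenced by Bmi1, read 2.12, 2.12 and 2.07 on the Irgm1-/- arrays and 2.05, 2.09 and 2.06 on the WT arrays, below the bacterial controls throughout. Pax5, a B cell factor, was likewise at 2.06, 2.10 and 2.004 in Irgm1-/- and 2.07, 2.03 and 2.001 in WT. Limma called 0 of the 5 tested targets, and none had an unadjusted p under 0.05. The smallest p belonged to Cdkn1a, the inhibitor p21, which read 12.04, 11.29 and 10.86 in Irgm1-/- and 11.12, 10.41 and 10.41 in WT, a difference of 0.75 (SE 0.32, adjusted p = 0.309). Cdkn2b differed by 0.24 (SE 0.14, adjusted p = 0.444) and Pax3 by 0.08 (adjusted p = 0.736), both close to the array medians.

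**Figure D4:**
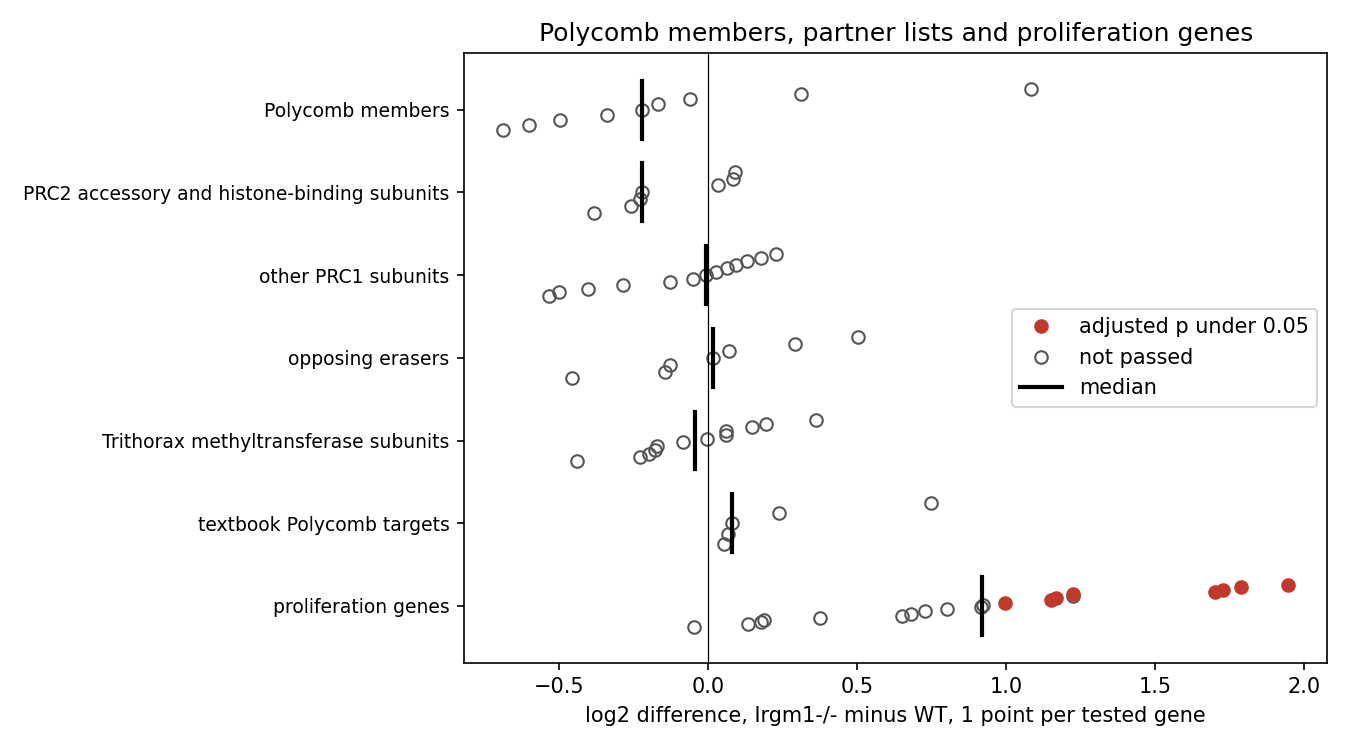
Log2 difference, Irgm1-/- minus WT, of each tested gene of the Polycomb members, 5 related lists and proliferation genes, each gene by its brightest tested probe set. Filled points passed at adjusted p under 0.05, open ones did not, and the bar is the median of the list. Filled points appear only among proliferation genes, 8 of 20, and Ezh2 is the rightmost open point of the members, at 1.08.

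Some genes of proliferation were higher on the Irgm1-/- arrays, as the Ezh2 readings were. The list, like the marker lists, was chosen with earlier results of these data known, so its share beside all genes is only a description. Of 20 tested, 8 (40%) rose and 0 fell, against 2.03% of all genes called in either direction, and the list's median difference was 0.92. The other 12 did not pass, and Pcna, the clamp of DNA replication, was at -0.05 (adjusted p = 0.936). Those with the smallest p were cyclin A2 (Ccna2), at 1.95 (adjusted p = 0.00347, SE 0.16), the proliferation marker Mki67, at 1.73 (adjusted p = 0.00783, SE 0.17), and thymidine kinase Tk1, at 1.70 (adjusted p = 0.009, SE 0.18). Averaged over its 20 genes, the level was 9.81, 9.76 and 9.81 on the Irgm1-/- arrays and 8.79, 8.77 and 9.04 on the WT arrays. Among the WT arrays replicate 3 was highest both in the list and in Ezh2, where it read 8.79. WT replicates 1 and 2 stood at 8.79 and 8.77 in the list and at 7.98 and 8.55 in Ezh2. Among the Irgm1-/- arrays the lowest was replicate 2 in the list and replicate 3 in Ezh2. Whether Ezh2 follows these genes was not tested. The count of 8 fell to between 1 and 5 when single arrays were left out, lowest without WT replicate 2.

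The 5 genes most like Ezh2 by Pearson's r over the 6 arrays were Cenph, Prim1, Aurkb, Cdv3 and Mzt1, with r of 0.995, 0.993, 0.992, 0.992 and 0.991. Cenph encodes a centromere protein, Prim1 a primase subunit of DNA replication, and Aurkb a mitotic kinase. The 6 arrays are 2 groups of 3, so any gene that differs between the groups shares much of this pattern, and 452 of 18528 candidate probe sets (2.44%) reached an r of 0.9. Of the 5, Aurkb had the largest difference, 1.84 (SE 0.35, adjusted p = 0.0564), and none passed.

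Markers of other blood cells and of RNA quality also differed between the arrays on which Ezh2 was compared. The 19 T and NK cell markers with a probe set averaged 5.39, 5.25 and 6.72 on the Irgm1-/- arrays and 4.18, 3.92 and 4.14 on the WT arrays. Of 10 tested, 5 rose and 0 fell: the chemokine Ccl5 by 4.93, the NK receptor subunit Klrd1 by 3.97, Ms4a4b by 3.71, granzyme B (Gzmb) by 3.69 and Thy1 by 3.63. The other 5 did not pass: Nkg7 at 2.61, Cd2 at 1.99, Cd3e at 0.77, Cd247 at 0.19 and Lat at -0.21. Cd2 and Cd3e were highest on Irgm1-/- replicate 3, at 7.63 and 6.56. The list's 3 genes at or below the bacterial controls on all arrays were Zap70, Ncr1 and Prf1. On Irgm1-/- replicate 3, where the mean of these markers was highest, Ezh2 was the lowest of its group. The actin gap given below was also largest on that array, and no link between these was tested. Without that array the Ezh2 difference was 1.204 (limma adjusted p = 0.0847). The mean of the T and NK markers was above WT on Irgm1-/- replicates 1 and 2 as well, so leaving out replicate 3 does not remove them. Erythroid and megakaryocyte markers averaged 5.80, 5.82 and 5.85 in Irgm1-/- and 5.11, 5.21 and 5.03 in WT, with 1 of 6 tested called higher and none lower. The gene called was the megakaryocyte gene Gp1bb, at 1.44 (adjusted p = 0.029). The megakaryocyte genes Vwf at 1.76, Itga2b at 1.003, Pf4 at 0.98 and Gp9 at -0.09 did not pass. Among erythroid genes only Epor was tested, at 0.49 (adjusted p = 0.349). The erythroid genes Hba-a1 and Klf1 lay at or below the bacterial controls on all arrays. The higher mean of this list therefore does not show that erythroid genes rose. The groups overlapped for the mean of 7 B cell markers, 3.31 to 3.35 in Irgm1-/- and 3.27 to 4.01 in WT, and for that of 12 neutrophil and monocyte markers, 6.00 to 6.28 in Irgm1-/- and 5.53 to 6.23 in WT. Of 8 tested neutrophil and monocyte markers 1 rose, Ms4a6c by 1.53 (adjusted p = 0.0313), and 0 fell, with Cd14 at -1.25 (adjusted p = 0.0518). The gap between 3′ and 5′ actin control probe sets, larger where amplified RNA covers less of a transcript, was 2.86, 2.81 and 3.56 on the Irgm1-/- arrays and 3.16, 3.16 and 2.57 on the WT arrays. The same gap for GAPDH was 2.57, 2.56 and 2.94 in Irgm1-/- and 2.77, 2.72 and 3.08 in WT. The replicates numbered 3, where the Ezh1, Cbx7 and Eed groups met or crossed and those of Ezh2 came closest, were opposite extremes by actin. Yet the 2 controls disagreed on WT replicate 3, which was lowest by actin and highest by GAPDH. The part of these markers and of RNA quality in the member values was not tested, and a change in the mix of sorted cells cannot be told apart from a change within each cell. Ezh1, Suz12 and Cbx8 lie on chromosome 11 with Irgm1, with 984, 598 and 1271 protein-coding genes of the RefSeq table between them and Irgm1.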

How the data were processed

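RNA from 6 samples of sorted stem cells was measured on Affymetrix arrays. The values the authors deposited are log2 expression values, 1 per probe set. Per the submitters' processing notes they come from GCRMA, and their range showed the log2 scale. GCRMA corrects background, normalises between arrays and summarises probes, so differences of dim probe sets depend on it. No source used here gives its version or a genome build. Of 45101 probe sets, 34958 had 1 symbol, 932 several and 9211 none in the platform table, and 34754 matched RefSeq (GRCm38.p6) by gene identifier.

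Testing used limma 3.58.1 under R 4.3.3 (lmFit, eBayes with intensity trend, 2-sided, Benjamini-Hochberg over 22580 probe sets). The replicate numbers gave correlations of -0.11, -0.02 and -0.28 between same-numbered arrays, so they do not pair them. All 10 members were described with all probe sets, and of other lists up to 3 genes with the smallest p. Pax5, Cdkn2a, the marker genes at background and genes beyond those 3 of a list were named after their values were seen. The members and lists were chosen with earlier results of these data known. The fit was tested on simulated data. The number of arrays, 3 per group, limits precision.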

Additional observations from a re-analysis of the deposited data

How the results depend on the processing

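The alternatives changed the filter on dim probe sets, the normalisation, the variance model, the weights, a covariate, the threshold and the arrays used. The count of member probe sets called was 0, and became 1 (Ezh2) with a filter at the 70th percentile, with array weights, with the actin gap as a covariate and at adjusted p under 0.10. Ezh2 kept a positive difference in all 17 alternatives, from 0.86 to 1.26 (adjusted p from 0.0277 to 0.254). The filters, variance models, replicate block and threshold cannot change a difference. Only the normalisations, array weights, covariate and left-out arrays could have altered its sign. No other member was called in any. The count over all probe sets, 313, was 126 with the filter at the 25th percentile and 103 without one. It was 864 with array weights, 515 with the actin gap, 629 at adjusted p under 0.10, and 45 (without WT replicate 2) to 267 when 1 array was left out. For proliferation genes, 8 in the reported fit, it was 5 at the 25th percentile, 4 without a filter and 1 to 5 when 1 array was left out. Array weights called 1 other PRC1 gene. With the replicate block 68 probe sets, 3 proliferation genes and 0 members were called, and no array correlated above 0.1 with its own number.

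Of 20 member probe sets, 14 kept their sign in every alternative, counting those that cannot change a difference. With single arrays left out the differences reversed for Ezh1 1418290_a_at (-0.22 to 0.14), Ezh1 1429629_at (-0.15 to 0.012), Bmi1 1448733_at (-0.21 to 0.0061), Ring1 (-0.42 to 0.098), Phc1 (-0.19 to 0.014) and Cbx7 1420039_s_at (-0.0078 to 0.58), and Ezh1 1429629_at was at 0.0025 with array weights. Over these alternatives Ezh2 minus Ezh1 ranged from 1.34, with the mean of all tested Ezh1 probe sets, to 2.11, without Irgm1-/- replicate 3. The choice of a single Ezh1 probe set moved it further, to 1.09 with 1418290_a_at and 1.17 with 1429629_at. For Cbx7 minus Cbx8 the mean of tested probe sets could not be used, since Cbx8 had none. The planned pseudocount did not apply to log values.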
